A study of Drosophila melanogaster with 24 samples.

Results

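The genes described here are 10 transcripts of the male germline, measured in genital discs of Drosophila melanogaster. Of these, 3 encode proteins of sperm chromatin, 6 encode proteins of the sperm tail, and ocn encodes a testis protein of the Janus family. The 10 genes are ProtA, ProtB, Mst77F, Mst84Da, Mst84Db, Mst84Dc, Mst84Dd, Mst98Ca, Mst98Cb and ocn. Each was read from the 1 probe set that the platform annotation assigns to it alone, so all 10 were measured, among 11982 genes on the arrays. The genes were picked with their values on all these arrays already known. Their differences between the sexes and between stages are therefore given as descriptions without a test.

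During spermatogenesis the histones of the spermatid nucleus are replaced by small basic proteins, and the axoneme of the flagellum is ensheathed by structural proteins rich in cysteine. The genes for both sets of proteins are transcribed in primary spermatocytes, stored as RNA and translated after meiosis. They are known for expression in the testis. The genital disc is a different tissue: it forms the internal ducts and glands and the external genitalia, while the testis develops from the gonad, to which male ducts attach during pupal life.

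Total RNA of dissected discs was hybridised, 1 array per sample, for 6 groups of 4 biological replicates (n = 4 arrays per group throughout). The groups were male and female discs at L3 (wandering third-instar larvae), P6 and P20, named for the hours, 6 and 20, since the puparium formed. All animals carried esgGAL4.B and UAS-GFP.nls over the CyO balancer, a marker that labels every imaginal disc with GFP to guide dissection, and larvae were sexed by gonad size. No group lacked these transgenes. The values are log2 RMA values (robust multi-array average, a normalised summary of a probe set), with array medians of 5.04 to 5.18 and correlations of 0.971 to 0.995 between replicate arrays. The number of arrays limits the precision, and signal over background is unknown because no detection calls are given. Of 9 genes listed as markers of the genital disc, 8 were measured. The lowest value on any array was 9.65 for cad, 9.23 for en, 8.39 for hh, 9.89 for dsx, 9.38 for esg, 9.35 for drm, 7.06 for Dll and 3.99 for byn, a hindgut gene.

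Before the results, 3 arrays need naming. L3 male replicate 2 was the highest of the 4 L3 male arrays for 10 of 10 sperm genes, as it was for 22.0% of all genes. L3 female replicate 4 was the highest L3 female array for 8 of 10 (25.2% of all genes), and P6 female replicate 4 the highest P6 female array for 8 of 10 (27.1% of all genes). Values for L3 are given with and without the first of these, and with both L3 arrays left out. In bulk tissue, fewer cells of a type and less RNA per cell cannot be told apart.

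ProtA and ProtB encode the protamine-like proteins that take the place of histones in sperm. ProtB had 5.44, 7.69, 7.80 and 5.67 in the 4 P6 male arrays, against 3.75, 3.77, 3.77 and 4.22 in the P6 female arrays. ProtA had 4.36, 6.30, 6.16 and 3.86 in P6 males, against 3.22, 3.32, 3.20 and 3.02 in P6 females. Every P6 male value lay above every P6 female value for both genes, and within males replicates 2 and 3 were the high pair and replicates 1 and 4 the low pair. At P20 ProtB had 5.104, 5.34, 5.82 and 5.32 in males, against 3.80, 3.69, 4.06 and 3.65 in females, again without overlap. The male minus female log2 difference was 2.77 for ProtB and 1.98 for ProtA at P6, and 1.60 and 1.22 at P20. The 2 genes lie next to each other on chromosome arm 2L and are near-identical copies, so their signals may be shared. A further probe set, which the annotation assigns to both, ran from 6.10 to 8.24 in P6 males and from 4.51 to 5.25 in P6 females.

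Mst77F encodes a sperm chromatin protein related to linker histones, and its gene lies on 3L. It had 7.85, 9.14, 10.21 and 6.38 in P6 males, against 3.86, 4.12, 3.33 and 5.40 in P6 females. The P20 values were 7.69, 7.59, 8.74 and 6.72 in males, against 4.04, 3.88, 3.55 and 3.71 in females. Neither stage had an overlap between the sexes. Its P6 difference of 4.22 was the largest of the 10 genes at that stage, and at P20 it was 3.89. The male values spread widely, with a mean of 8.39 ± 1.65 (SD, n = 4) in P6 males and 4.18 ± 0.88 in P6 females.

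Mst84Da, Mst84Db, Mst84Dc and Mst84Dd belong to a family of small proteins of the sperm tail that carry repeated cysteine-glycine-proline motifs, and the 4 genes form an uninterrupted run on 3R. Mst84Dc had 8.97, 10.09, 10.27 and 7.58 in P6 males, against 4.30, 4.49, 5.06 and 6.47 in P6 females. At P20 it had 8.79, 8.24, 9.93 and 7.36 in males, against 4.11, 4.05, 3.98 and 3.59 in females. The sexes did not overlap at either stage, and P6 female replicate 4 stood above the other P6 female arrays. The differences of 4.15 at P6 and 4.65 at P20 were larger than those of the other 3 genes of the run. Those of Mst84Da were 2.88 and 2.58, of Mst84Dd 2.91 and 2.21, and of Mst84Db 1.83 and 1.58.

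Within the run the genes also differed in how they behaved at P20. Mst84Db had 6.71, 6.43, 8.16 and 5.13 in P20 males, against 4.97, 5.29, 5.24 and 4.5999 in P20 females, so replicate 4 of the males lay within the female range. Mst84Dd had 5.70, 5.22, 8.20 and 4.98 in P20 males, against 3.87, 3.80, 4.13 and 3.47 in P20 females. Male replicate 3 lay far above the other males for both genes. Without that array the Mst84Dd difference at P20 was 1.48, against 2.21 with it, and the Mst84Db difference was 1.06, against 1.58.

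Mst98Ca and Mst98Cb, neighbours on 3R, encode larger members of the same cysteine-rich family, bound to the flagellar axoneme. Mst98Ca had 5.16, 6.05, 6.17 and 5.104 in P6 males, against 4.41, 4.35, 4.36 and 4.46 in P6 females. At P20 its values were 4.81, 4.63, 5.15 and 4.797 in males, against 4.43, 4.53, 4.99 and 4.46 in females. The sexes thus overlapped at P20, where 1 of 4 male arrays lay above the highest female array and the difference was 0.25, the smallest of the 10 genes. Mst98Cb kept the sexes apart at both stages, with differences of 1.55 at P6 and 1.03 at P20.

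The gene ocn (ocnus) encodes a testis protein of the Janus family and lies on 3R beside janB, a gene of the same family. It had 7.44, 7.91, 8.80 and 5.76 in P6 males, against 2.73, 2.81, 2.97 and 5.06 in P6 females. In P20 males it had 6.56, 6.62, 9.07 and 5.24, against 3.05, 2.75, 2.93 and 3.08 in P20 females. The sexes did not overlap, though P6 female replicate 4 came within 1 log2 unit of the lowest P6 male. The difference was 4.08 at P6 and 3.92 at P20.

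**Figure D1:**
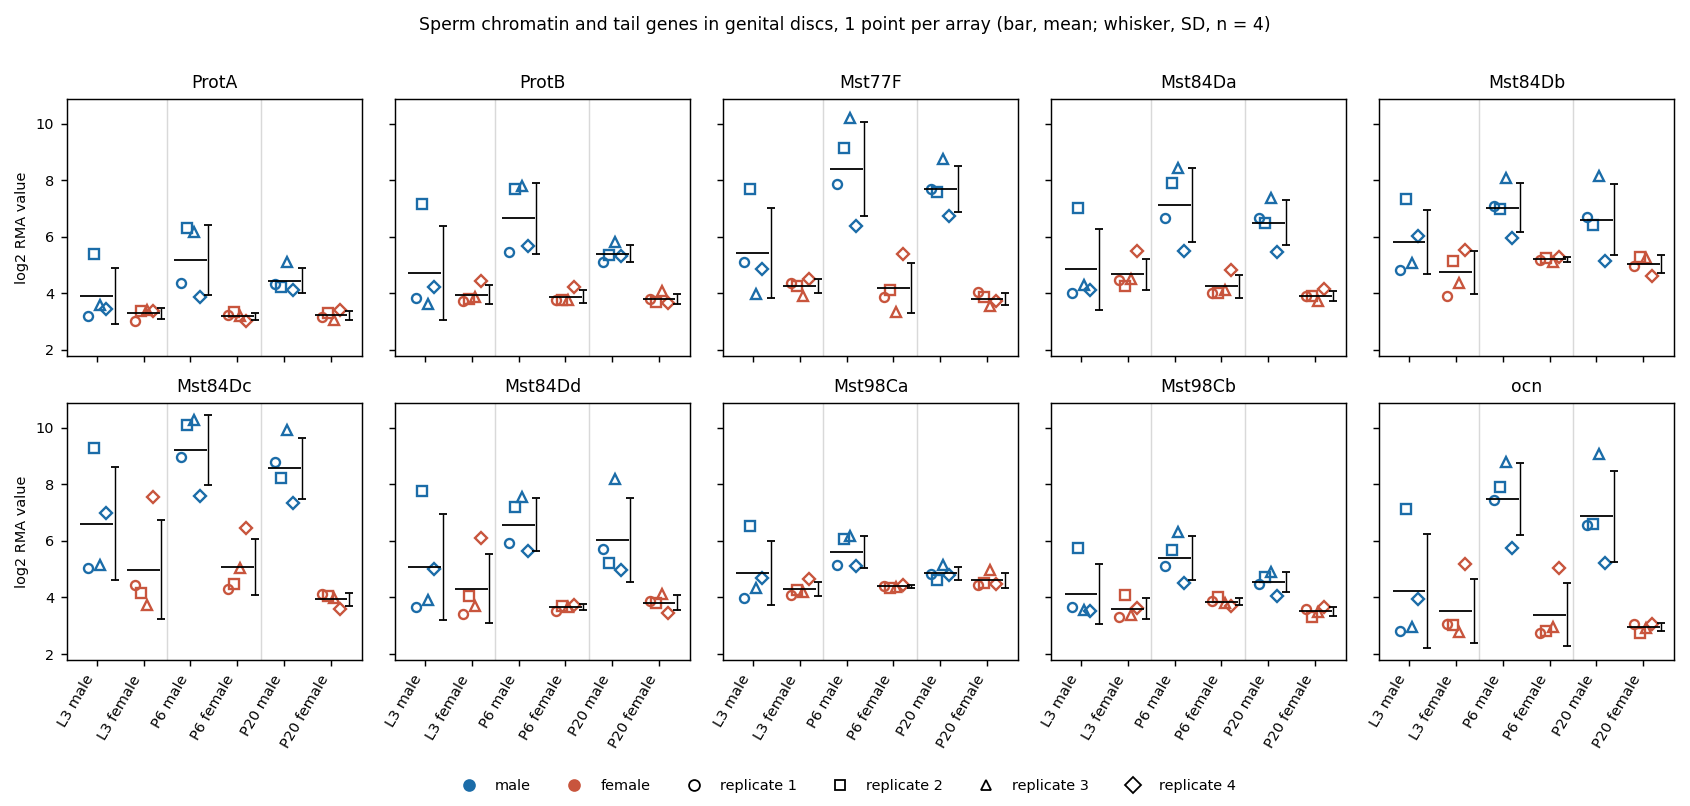
Log2 RMA values of the 10 genes (one panel each) on every array, with the 6 groups along the horizontal axis, males in blue and females in red, and the replicate number given by the symbol. Horizontal bars are group means and whiskers the SD of 4 arrays. P6 and P20 males lie above females for nearly all genes, and L3 male replicate 2 (square) lies apart from the other L3 males in every panel.

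Over the 10 genes the median male minus female difference was 2.83 at P6 (range 1.23 to 4.22) and 1.90 at P20 (0.25 to 4.65), while the median over all genes was 0.01 at P6 and 0.00 at P20. At P6 all 4 males lay above all 4 females for 10 of 10 genes, as they did for 7.04% of all genes. At P20 this held for 8 of 10, the exceptions being Mst84Db and Mst98Ca, and for 4.81% of all genes. The genes were picked on these comparisons, and these counts describe them only. Mst77F, Mst84Dc and ocn had the 3 largest differences at both stages.

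At L3 all 10 genes had the higher mean in males, with differences of 0.17 for Mst84Da to 1.63 for Mst84Dc and a median of 0.73, against a median of -0.01 over all genes. All 4 males lay above all 4 females for 0 of 10, against 1.47% of all genes.

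L3 male replicate 2 raised the L3 male mean of every gene, though not all L3 differences rested on it. Mst84Dc had 5.03, 9.29, 5.16 and 6.97 in L3 males, against 4.46, 4.17, 3.74 and 7.57 in L3 females. ProtB had 3.83, 7.16, 3.61 and 4.21 in L3 males, against 3.72, 3.81, 3.86 and 4.43 in L3 females. For ocn the L3 male values were 2.82, 7.14, 2.95 and 3.93, against 3.05, 3.03, 2.78 and 5.19 in L3 females. In these 3 genes L3 male replicate 2 was 3.21 to 4.31 log2 units above the female mean, and replicates 1 and 3 lay within or below the female range.

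Without that array the median difference at L3 was 0.00 (range -0.54 to 0.74), and with L3 female replicate 4 left out as well it was 0.21 (range -0.27 to 1.60). The sign turned without L3 male replicate 2 for ProtB (-0.069), Mst84Da (-0.54), Mst84Dd (-0.13), Mst98Cb (-0.018) and ocn (-0.28). It stayed positive for Mst84Dc (0.74), Mst84Db (0.57), Mst77F (0.40), ProtA (0.12) and Mst98Ca (0.021). With both arrays left out, the highest difference was that of Mst84Dc (1.60) and the lowest that of Mst84Da (-0.27). L3 male replicate 2 lay above every L3 female array for 10 of 10 genes (17.2% of all genes). The counts for L3 male replicates 1, 3 and 4 were 1, 1 and 4 of 10, against 19.7%, 16.7% and 16.9% of all genes. Mst98Ca had its highest value of all 24 arrays, 6.53, on L3 male replicate 2.

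The L3 male replicate 2 array also differed from the other L3 males in genes of other tissues. The mean level of 17 genes of the male accessory gland and ejaculatory bulb was 4.59 there, against 3.88, 3.90 and 3.91 on the other L3 male arrays and 3.92 to 4.00 on L3 female arrays. Among them Acp98AB had 7.52, at most 4.39 on the other L3 males. Acp53Ea had 6.36, at most 3.16 on the others. Both are seminal fluid protein genes, named after their values were seen. Of the 17 genes, 9 were highest among L3 males on this array, 4 of them by more than 1 log2 unit (Acp53Ea, Acp98AB, Mst57Da and SP), and 8 were not. EbpIII, at 5.27, was below the other L3 males' highest value of 6.63.

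The same array held the lowest mean levels among L3 males of fat body genes (8.42, against 10.26 to 11.86), hemocyte genes (8.02, against 8.29 to 9.20) and muscle genes (6.13, against 7.16 to 8.17). L3 females ran from 9.69 to 11.83 for fat body, 8.45 to 9.50 for hemocytes and 6.60 to 8.49 for muscle. The hemocyte list holds lz, which averaged 4.58 in L3 males and 9.31 in L3 females, so its mean level is not comparable between the sexes. The part of these other tissues in the sperm gene values was not tested.

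**Figure D2:**
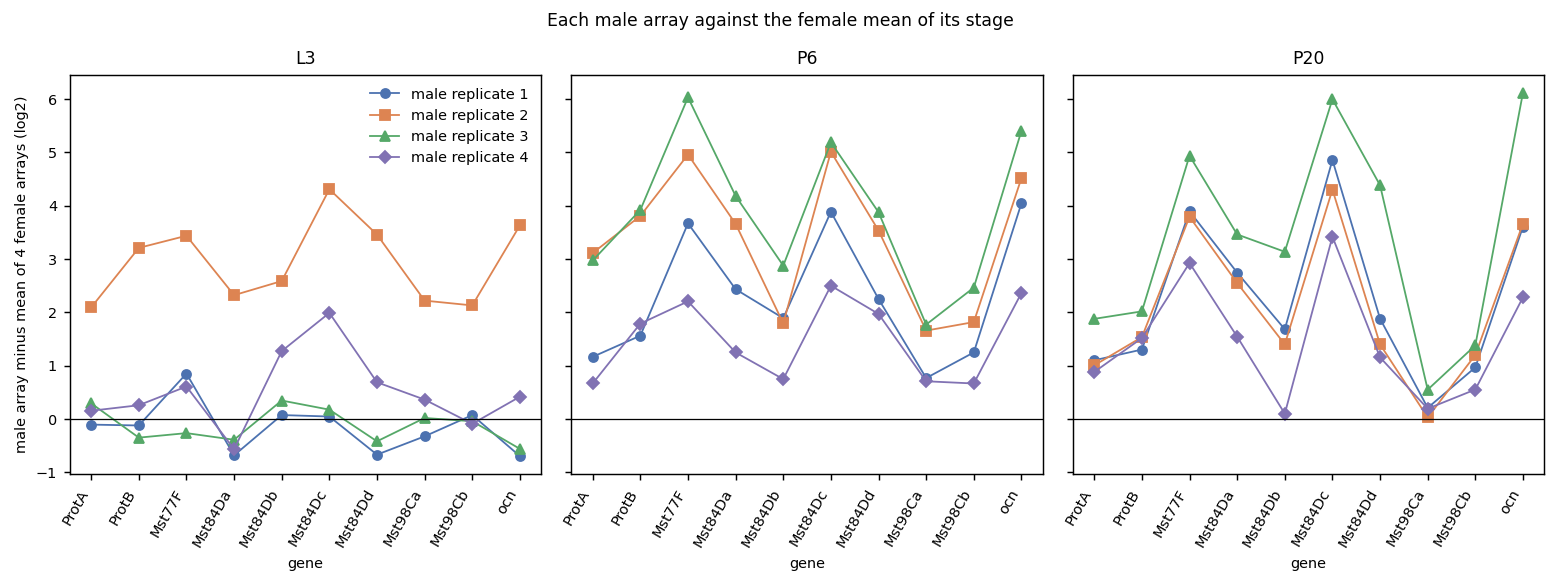
Each male array's log2 value minus the mean of the 4 female arrays of its stage, for the 10 genes along the horizontal axis, in panels for L3, P6 and P20, with 1 line per male replicate. At P6 and P20 each line has its highest point at Mst77F, Mst84Dc or ocn. At L3 replicate 2 lies at 2.09 to 4.31, and the other 3 replicates lie between -0.69 and 1.99.

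At P6 and P20 the same male array was the highest for nearly all genes. P6 male replicate 3 was the highest P6 male for 9 of 10 genes, the exception being ProtA, as it was for 19.7% of all genes. P6 male replicate 4 had the lowest mean over the 10 genes, 5.59, against 7.98 on P6 male replicate 3. P20 male replicate 3 was the highest P20 male for 10 of 10 (32.7% of all genes) and replicate 4 the lowest for 8 of 10 (23.1%). Replicate numbers do not tie arrays of different stages to each other in the labels. The genital disc list averaged 9.13 on P6 male replicate 3, against 9.19 to 9.36 on the other P6 males. On P20 male replicate 3 it averaged 8.98, against 9.42 to 9.54 on the other P20 males. The fat body list averaged 12.57 on P6 male replicate 3, against 11.68 to 12.15 on the other P6 males. On P20 male replicate 3 it averaged 11.36, within the 10.67 to 12.14 of the other P20 males. The part of tissue make-up in the sperm gene values was not tested.

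Set against the female mean of its stage, the median over the 10 genes was 2.07, 3.60, 3.90 and 1.52 log2 units for P6 males and 1.78, 1.47, 3.30 and 1.34 for P20 males. Each male array was above the female mean for every gene at both stages. The lowest single value was 0.03, for Mst98Ca on P20 male replicate 2, and the highest 6.12, for ocn on P20 male replicate 3. At L3 the 4 medians were -0.11, 2.90, -0.15 and 0.39.

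The SD over 4 replicates put a size on this spread. For the 10 genes it ran from 1.003 to 2.02 in L3 males and from 0.18 to 1.75 in L3 females. It ran from 0.57 to 1.65 in P6 males and from 0.05 to 1.11 in P6 females, and from 0.22 to 1.60 in P20 males and from 0.15 to 0.32 in P20 females. The median SD over all genes was between 0.15 and 0.25 in the 6 groups. In L3 males all 10 genes, in P6 males 9 and in P20 males 6 had an SD above the 95th percentile of all genes in the group. In L3 females and in P6 females 3 did so, and in P20 females 0 did. Mst98Ca was the least variable in P6 males (0.57) and in P20 males (0.22).

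**Figure D3:**
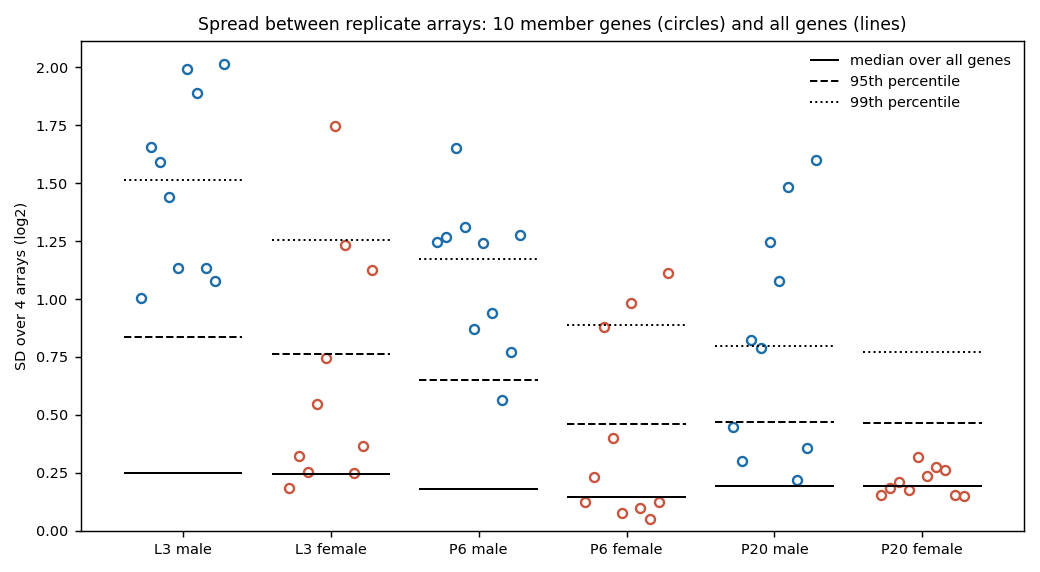
SD over the 4 arrays of each group (vertical axis, log2 units) for the 10 genes (circles, in the order ProtA to ocn within each group) with the median, 95th and 99th percentile of the SD over all genes as lines. The circles of L3 and P6 males lie far above the median line, and those of P20 females lie around it.

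The female arrays were low with few exceptions. Mst84Dc had 7.57 on L3 female replicate 4 and 6.47 on P6 female replicate 4, and at most 5.06 on the other 10 female arrays. On the same arrays ocn had 5.19 and 5.06, with at most 3.08 on the others. Mst84Dd had 6.12 on L3 female replicate 4 and 3.75 on P6 female replicate 4. On L3 female replicate 4 these 3 genes lay above L3 male replicates 1, 3 and 4 and below L3 male replicate 2. The P20 females held no such array, since their means over the 10 genes lay between 3.78 and 3.91.

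Between stages, the male means of all 10 genes were in the order P6, P20, then L3, except that Mst98Ca had 4.85 at P20 and 4.88 at L3. The later minus earlier difference in males from L3 to P6 ran from 0.74 to 3.26 with a median of 1.72, and without L3 male replicate 2 from 1.29 to 4.24 with a median of 2.58. From P6 to P20 it ran from -1.25, for ProtB, to -0.42, for Mst84Db, with a median of -0.68. With all arrays, the P6 and L3 males, and the P20 and P6 males, overlapped for all 10 genes (over all genes, 11.0% had P6 males above L3 males and 14.0% had P20 males below P6 males without overlap). Without L3 male replicate 2, every P6 male lay above the remaining L3 males for 9 of 10 genes, the exception being Mst84Db, as was so for 13.9% of all genes. In females the median difference was -0.08 from L3 to P6 and -0.25 from P6 to P20.

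Genes of the same roles that were not among the 10 were read from lists and tested over all genes, with the male minus female difference given each time. The lists, like the 10 genes, were chosen with earlier results of these data known, so their calls are not independent support. Of 6 other sperm chromatin genes, 5 were higher in males and 0 lower at P6, with a median difference of 1.17; 4.83% of all genes passed, 3.72% higher in males and 1.11% lower. The HMG-box genes of spermatid chromatin tHMG1 (2.63, adjusted p = 0.000974) and tHMG2 (2.11, adjusted p = 0.00684) and the basic sperm protein gene Mst33A (1.40, adjusted p = 0.00216) were among them. Mst89B (0.60, adjusted p = 0.00906) and the transition protein-like gene Tpl94D (0.88, adjusted p = 0.045) also passed. Prtl99C, of a further sperm nuclear protein, had 0.94 (adjusted p = 0.104).

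Single arrays decided some of these calls. Without P6 male replicate 3, 3 of the 6 were higher, and Tpl94D did not pass without any 1 of the arrays other than P6 male replicate 4 (adjusted p up to 0.22). At P20 Mst33A passed and the other 5 did not (1.14, adjusted p = 0.019), with 2.35% of all genes past the threshold, 1.65% higher in males and 0.701% lower, and its call ended without 6 of the 8 arrays taken 1 at a time (adjusted p up to 0.0709). A fit of the P20 arrays alone had 3 of 6 higher in males, tHMG1 (adjusted p = 0.00435) and tHMG2 (adjusted p = 0.00682) besides Mst33A, and a fit of the P6 arrays alone had 2 of 6, Mst33A and tHMG1. At L3 0 of 6 passed. The mean level of the list ran from 4.04 to 6.10 on P6 male arrays, highest on replicate 3, and from 3.60 to 3.69 on P6 female arrays.

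Of 24 measured genes of the sperm tail and postmeiotic stages, 6 were higher in males and 0 lower at P6, with a median of 0.45. They were the leucyl aminopeptidase genes S-Lap7 (3.04, adjusted p = 0.0014), S-Lap8 (2.15, adjusted p = 0.003) and S-Lap2 (1.37, adjusted p = 0.00728), gudu (0.52, adjusted p = 0.00708), the testis tubulin gene betaTub85D (2.54, adjusted p = 0.0117) and janB (2.22, adjusted p = 0.00794), named as the neighbour of ocn. At P20 and at L3 0 of 24 passed, but a fit of the P20 arrays alone had 5 of 24 higher in males, among them betaTub85D (adjusted p = 0.00094), S-Lap7 (adjusted p = 0.00862) and S-Lap2 (adjusted p = 0.0416). The cysteine-rich tail gene Mst87F, of the same family as the Mst84D genes, had 1.02 at P6 (adjusted p = 0.264) and 1.15 at P20 (adjusted p = 0.283). The tail gene dj (don juan) had 0.78 (adjusted p = 0.105) and 0.41 (adjusted p = 0.816). The betaTub85D call ended without P6 male replicate 2 or 3 and in a fit of the P6 arrays alone (adjusted p up to 0.109).

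Of 12 measured cup and comet genes, which are transcribed after meiosis, wa-cup (0.50, adjusted p = 0.0231) and boly (0.68, adjusted p = 0.049) were higher in males at P6, and 0 were lower. The boly call ended without 7 of the 8 arrays taken 1 at a time, and that of wa-cup without P6 male replicate 3 or P6 female replicate 2 or 4 (adjusted p up to 0.252 and 0.201 over all alternatives). Without P6 male replicate 4, 4 of 12 passed. At P20 and L3 0 of 12 passed. The 16 genes of spermatocyte control comprise the testis meiotic arrest complex, testis TAFs and meiotic regulators. They had 0 past the threshold at every stage and medians of -0.08 at L3, 0.12 at P6 and -0.01 at P20. Their P6 differences ran from -0.63 to 1.72. Higher in males, fest passed at P6 without P6 male replicate 4, and bol at L3 without L3 female replicate 1 or L3 male replicate 1. Of the 16, 12 had their highest P6 male value on replicate 3. The list averaged 5.22 there, against 4.58 to 4.76 on the other P6 males and 4.58 to 4.70 on P6 females.

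The early germline list, which holds vas, piwi and aub, had 0 of 14 past the threshold at all 3 stages (spn-E passed at P6 without P6 male replicate 3), with medians of 0.00 at L3, 0.01 at P6 and 0.03 at P20. Its mean level on P6 male arrays ran from 5.07 to 5.32, lowest on replicate 3, and on P6 female arrays from 5.14 to 5.30. The 4 measured genes of the somatic testis had 0 past the threshold as well, with mean levels of 6.13 to 6.41 on P6 males and 6.33 to 6.48 on P6 females. Of 17 genes of the accessory gland and ejaculatory bulb, Acp76A was lower in males at P6 (-1.25, adjusted p = 3.07e-06) and 0 were higher.

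**Figure D4:**
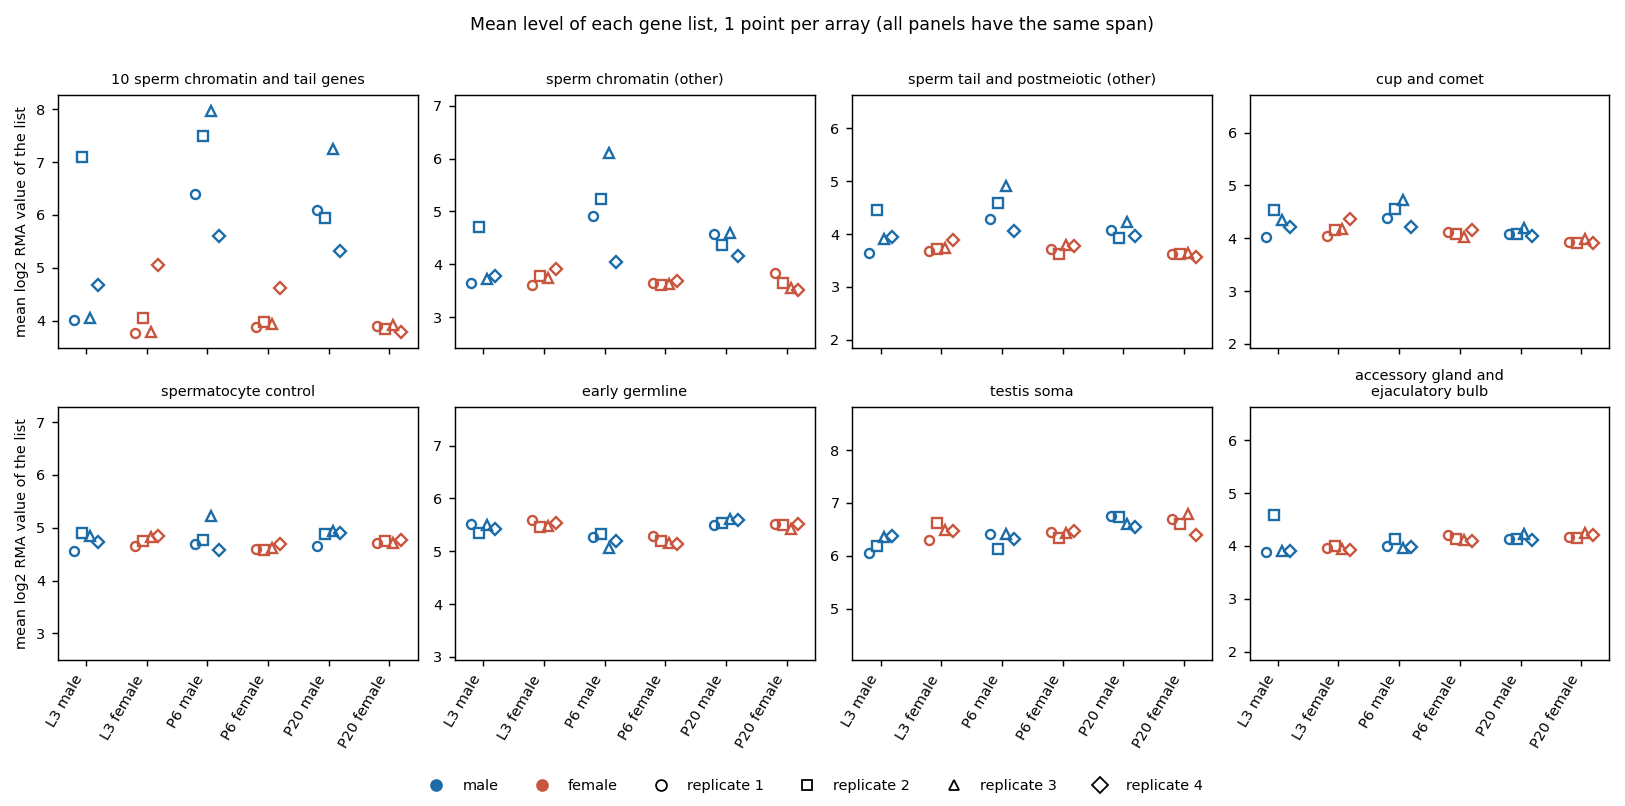
Mean log2 RMA value of each gene list (vertical axis, the same span in each panel) on every array, for the 10 genes and for 7 lists of other germline, testis and male gland genes. In P6 males replicate 3 (triangle) is the highest for the 10 genes, for other sperm chromatin, sperm tail and cup and comet genes and for spermatocyte control, and lowest for the early germline list.

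Lists of the genital disc itself and of other tissues were read in the same way. Of 8 measured genital disc genes, 1 was higher in males at L3, 3 at P6 and 2 at P20, and 0 were lower. The shares of all genes higher in males were 0.618%, 3.72% and 1.65%. In the genital disc list dsx (0.91, 0.85 and 0.84 at L3, P6 and P20, adjusted p = 0.000658, 0.000642 and 0.000854) was higher in males at each stage, though with its probe sets averaged it was lower in males at each, and the L3 call ended in a fit of the L3 arrays alone (adjusted p = 0.0992). Over all genes 0.985% passed at L3, 0.618% higher and 0.367% lower in males. The segment polarity gene en (0.57 at P6, adjusted p = 0.0011, and 0.62 at P20, adjusted p = 0.00048) and the appendage gene Dll (0.83 at P6, adjusted p = 0.0355) were higher in males too. At P20 Dll had 0.82 (adjusted p = 0.0635, and 0.0279 with the replicate number as a block). The Dll call at P6 ended without 7 of the 8 arrays taken 1 at a time (adjusted p up to 0.135). In the hemocyte list lz was lower in males at L3 (-4.72, adjusted p = 2.3e-08), P6 (-5.12, adjusted p = 3.86e-09) and P20 (-7.15, adjusted p = 1.11e-11). The median of that list was 0.16 at L3, -0.0038 at P6 and -0.27 at P20. Pxn was higher in males at P6 (0.88, adjusted p = 0.025). Its call ended without P6 male replicate 3, without any P6 female array, and with probe sets averaged (adjusted p up to 0.38). In the fat body list, 4 genes, and the muscle list, 5 genes, 0 passed at any stage.

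The genes directly beside the 10 on the chromosome were read to see whether neighbours shared the pattern, a list added after the members' values were known. All 10 such flanking genes were measured. At P6 janB, beside ocn, and CG17944, beside Mst84Dd (1.35, adjusted p = 0.0016), were higher in males and the other 8 did not pass. Over all genes 3.72% were higher in males at P6, and janB was already counted in the sperm tail list. MstProx, beside Mst84Da, had -0.05, and side-II, beside ProtB, had -0.16. At P20 and L3 0 of 10 passed.

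The genes outside the 10 with the most similar pattern were found by Pearson's r with the mean of the 10 genes over 24 arrays, which share sex, stage and array. The 10 with the highest r, between 0.970 and 0.986, were CG17377, CG30039, CG31788, CG31226, CR17567, CG17376, CG33340, CG30430, robl62A and CG31870. CG17377 averaged 6.77 ± 1.21 in P6 males and 3.77 ± 0.38 in P6 females, and had 6.98 on L3 male replicate 2, against 3.54, 3.51 and 4.59 on the other L3 males. CG30039 averaged 6.26 ± 1.204 in P6 males and 3.26 ± 0.22 in P6 females. None of the 10 belongs to a list used here. Among the sperm genes themselves, r of a gene with the mean of the other 9 was lowest for Mst98Ca (0.854) and highest for Mst84Da (0.974).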

How the data were processed

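Each deposited value is a log2 signal of a probe set on the Affymetrix Drosophila Genome 2.0 array, summarised by the authors with RMA per the submitters' processing notes. No version or settings of RMA are given in the sources used here. The values were taken unchanged. Labelled cDNA came from 20 ng of total RNA, per the labels. The table held 18952 probe sets, of which 13647 had 1 gene, 402 several and 4720 none in the platform annotation; 183 controls were left out. Where a gene had more than 1 probe set (1094 genes), the brightest on average stood for it, which gave 11982 genes, without a filter on low values. Chromosome arms and neighbours come from a Release 6 gene table; the build of the array annotation is not given, so no coordinates are printed.

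Differences are male minus female, fitted with limma 3.58.1 in R 4.3.3 (lmFit and eBayes, 1 mean per group, all 24 arrays, 18 residual degrees of freedom), with Benjamini-Hochberg adjustment over all genes, two-sided, at 0.05. The members and lists were chosen with earlier results of these data known, so the planned test of the members at L3 is not reported. All 10 members are named. From each list up to 4 genes past the threshold at P6 or P20 with the smallest P6 adjusted p are named, and Mst87F, Prtl99C, Tpl94D, dj and betaTub85D whatever their values. Annotation symbols differed from the listed ones for rye (Taf12L), nos (nanos) and 3 ejaculatory bulb genes.

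On simulated data for the P6 comparison, with 200 of 11982 genes changed, 98.5% of changes of 2 log2 units were recovered, 79.1% of 1 and 23.9% of 0.5. There were 9 false calls. The simulation gave each gene the same SD in all 6 groups. Its rates therefore do not cover genes that spread more in males, such as tHMG1 (SD 1.37 in P6 males, 0.21 in P6 females). The labels give no batch. Same-numbered male and female arrays had correlated deviations at P20 (r of 0.113 to 0.421, all 4 pairs over 0.1). P20 male replicate 1 had an r of 0.117 with female replicate 3, against 0.113 with its own number. At L3 and P6 only 3 and 2 of the 4 pairs had r over 0.1 (0.072 to 0.679 and 0.030 to 0.278). The fit used for the calls does not pair arrays at any stage, P20 included. The replicate block is an alternative at all 3 stages, and at P20 it passed 415 genes, against 282 without it. Alternatives were median centring, a variance trend with robust prior, leaving out dim genes, averaging probe sets, stage-only fits, the replicate block and leaving out arrays.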

Additional observations from a re-analysis of the deposited data

Results flagged for a closer look

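Of 60 sets of 4 arrays (10 genes in 6 groups), 9 had an array whose gap to the nearest other array, over the range of the group, passed Dixon's 95% critical value. Chance gives about 1 set in 20, and over all genes 6.54% of such sets passed (8.35% in L3 males, 6.43% in L3 females and 5.39% in P6 females). The 10 genes were chosen with these values in view, so the flags are descriptions. For L3 male replicate 2 these were ProtB at 7.16 (3.61 to 4.21 on the other L3 males), Mst84Da at 6.9996 (3.997 to 4.29) and Mst98Cb at 5.73 (3.51 to 3.68). For P6 female replicate 4 they were ProtB at 4.22 (3.75 to 3.77 on the other P6 females), Mst84Da at 4.84 (3.996 to 4.10) and ocn at 5.06 (2.73 to 2.97). L3 female replicate 4 had ocn at 5.19 (2.78 to 3.05 on the other L3 females). L3 female replicate 1 was low for ProtA at 3.02 (3.36 to 3.41), and P20 female replicate 3 was high for Mst98Ca at 4.99 (4.43 to 4.53).

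The male minus female difference changed between stages for Mst89B, by 0.85 from L3 to P6 (adjusted p = 0.0361, interaction contrast in limma), and for Acp76A, by -1.03 from L3 to P6 (adjusted p = 0.00996) and by 1.13 from P6 to P20 (adjusted p = 0.00233). Over all genes, 0.81% and 1.15% passed in the 2 interaction contrasts. Among all listed genes the calls numbered 5, in 4 genes, and only those of genes picked for naming are given here.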

How the results depend on the processing

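The median difference of the 10 genes was 2.83 at P6 and lay between 2.42 and 3.16 without 1 array; at P20 it was 1.90 and lay between 1.47 and 2.32. Without 1 array the genes past the threshold numbered 85 to 140 at L3 (118 with all arrays), 388 to 719 at P6 (579) and 229 to 263 at P20 (282), and the listed genes 2 to 4 at L3 (2; 4 without L3 female replicate 1), 13 to 24 at P6 (19) and 3 to 5 at P20 (4). Fitted without the other stages, the L3 arrays gave 44 genes and 1 listed gene; the replicate block gave 242 and 5 at L3, where 3 of 4 male arrays correlated best with their own number. The 8 P20 arrays alone passed 11 listed genes. With the dimmest 25% of genes left out, fewer genes were tested, and 12 listed genes passed at P6. Calls of a changed sex difference among listed genes numbered 5, in 4 genes, and 3 with median centring and 2 without dim genes. Among listed genes, the block ended no call of a sex difference within a stage. It added en, mia and upd1 at L3, spn-E, soti and mia at P6 and Dll at P20. Without 1 array the L3 difference lay between -0.069 and 1.12 for ProtB, -0.54 and 0.46 for Mst84Da, -0.13 and 1.37 for Mst84Dd, -0.018 and 0.72 for Mst98Cb and -0.28 and 1.26 for ocn, each time lowest, and below 0, without L3 male replicate 2. With L3 female replicate 4 left out too, an alternative chosen after seeing the data, it was below 0 for Mst84Da (-0.27) and Mst98Cb (-0.0076). With probe sets averaged dsx was lower in males, by -2.28 at L3, -1.91 at P6 and -1.99 at P20; its transcripts are spliced differently in the sexes, and the cause was not tested. Median centring ended the P6 calls of Mst89B, Tpl94D, gudu, wa-cup, boly and Dll and the P20 call of Mst33A. Fits of 1 stage ended the P6 calls of tHMG2 (adjusted p = 0.0681), Mst89B, Tpl94D, gudu, wa-cup and betaTub85D and the L3 call of dsx. Low signal limits the dimmest of these genes, and how far is unknown without detection calls.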
